A study of Homo sapiens with 4 samples.

Results

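Growing cells take up amino acids through a small set of membrane proteins of the solute carrier families. The 10 genes described here are SLC7A5, SLC3A2, SLC7A11, SLC7A1, SLC7A6, SLC1A4, SLC1A5, SLC38A1, SLC38A2 and SLC6A9. They were chosen by name and not by a cut on their values, though with earlier results of these data known. They are the genes of the RNA-seq table whose Ensembl identifiers carry these symbols in GENCODE release 44. They make up 10 of the 58735 genes in the table. All 10 were found and all 10 passed the filter on low values.

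RNA was sequenced from cells labelled NB4, a human acute promyelocytic leukemia cell line, in 4 libraries. The control group (n = 2) is labelled only as the control of GNE-987, and whether a vehicle was added is not given there. The treated group (n = 2) received GNE-987, a chimeric degrader, which tethers readers of acetylated histones to a ubiquitin ligase. The dose of 25 nM and the time of 24 h were taken from the legend of the study's own plot of these libraries and are not in the sample labels. The comparison asks which transcripts differed after GNE-987. The labels do not say whether libraries of a group came from separate cultures, so P values measure the spread between libraries, which may be technical.

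Transport of amino acids into a dividing cell is a chain of linked exchanges. SLC1A5 (ASCT2) and the SLC38 carriers fill the cell with glutamine and other neutral amino acids, and SLC7A5 (LAT1) exports glutamine to bring in leucine and other large neutral amino acids. SLC7A5, SLC7A6 and SLC7A11 are light chains, which reach the plasma membrane bound by a disulfide bridge to SLC3A2, the heavy chain of CD98. Imported leucine and arginine are sensed at the lysosome by the complexes that activate the kinase mTORC1, and imported cystine and glycine feed the synthesis of glutathione.

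The deposited values are FPKM, which are fragments per gene scaled by gene length and by library. Reads on genes, recovered from the steps of these values, numbered 19301116 and 19077342 for control and 12219259 and 12721446 for GNE-987, so low values are less precise with GNE-987. Genes of the mitochondrial genome took 3.78% and 4.58% of these reads in control and 15.9% and 15.5% with GNE-987. Of 12 myeloid marker genes, 3 reached 1 FPKM in both control libraries, with MPO at 0.0246 and 0, ELANE and CTSG at 0, and a summed level of 11.3 to 13.1 FPKM. Of 12 erythroid marker genes, 10 did so, with GATA1 at 123.8 and 121.8 FPKM and a summed level of 675 to 678 FPKM. The granule genes MPO, ELANE and CTSG were thus at or near 0 in the control libraries labelled NB4, while AZU1, another granule gene, had 2.071 and 2.104 FPKM. With GNE-987 the summed level was 37.5 to 39.2 FPKM for the myeloid and 849 to 968 FPKM for the erythroid markers. The FPKM of all genes added to 218486 and 227275 in control and to 624137 and 612335 with GNE-987. As a share of that total, the erythroid sum was therefore lower with GNE-987, so the direction of its change depends on the scaling. The part that these differences had in the results below was not tested. In bulk RNA, fewer cells of a type and less RNA per cell cannot be told apart.

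Upstream sequence is shown for 3 members on which the results turn, the LAT1 gene SLC7A5, its heavy chain gene SLC3A2, and SLC7A1, which had the largest fall of the 10 members in the deposited values. RefSeq windows of GRCh38.p14 matched 9 of the 10 members, with 15 annotated starts, and the start nearest to that of GENCODE was used. The sequences run 5′ to 3′ on the strand of the gene and end before its annotated start. They lie at chr16:87869508-87869757 (minus strand), chr11:62855859-62856003 (plus strand) and chr13:29595689-29595938 (minus strand). Capitals mark the letters CACGTG in the SLC7A5 window, and in the SLC3A2 window the 50 bases between the start of SLC3A2 and the farthest annotated start of SNHG1, a noncoding RNA gene on the opposite strand. The SLC7A1 window has no capitals.
SLC7A5: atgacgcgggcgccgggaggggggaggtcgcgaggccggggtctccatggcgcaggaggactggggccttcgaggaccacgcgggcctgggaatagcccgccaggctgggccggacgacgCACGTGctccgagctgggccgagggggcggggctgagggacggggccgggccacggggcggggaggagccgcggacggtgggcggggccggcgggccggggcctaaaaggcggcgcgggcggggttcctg
SLC3A2: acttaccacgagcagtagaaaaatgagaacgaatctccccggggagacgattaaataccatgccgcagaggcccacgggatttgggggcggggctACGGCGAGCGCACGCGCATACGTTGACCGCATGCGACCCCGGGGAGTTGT
SLC7A1: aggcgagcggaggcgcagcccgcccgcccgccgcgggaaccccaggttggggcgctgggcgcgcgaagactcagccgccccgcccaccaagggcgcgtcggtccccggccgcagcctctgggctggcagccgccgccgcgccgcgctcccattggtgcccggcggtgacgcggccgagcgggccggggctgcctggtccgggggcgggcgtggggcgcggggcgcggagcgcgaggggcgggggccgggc

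Both strands of the 250 bases before each start were searched for CACGTG (the E-box read by MYC and related factors), TGATGNAA (the element read by ATF4), TGANTCA (the AP-1 element) and AGATAA (read by GATA1). Of all 35116 RefSeq windows of this length, 6.34% hold CACGTG, 3.14% TGATGNAA, 6.57% TGANTCA and 9.17% AGATAA. The starts of the search are those of RefSeq. For SLC3A2 the nearest one is at 62856109, so its searched window runs past the end of the printed sequence. At the starts nearest to those of GENCODE, the only match among the 9 members was the CACGTG of SLC7A5, whose first base lies 130 bases before the start. At other annotated starts, SLC1A5 had CACGTG 50 bases before one start and TGATGCAA 97 bases before another. TGACTCA lay 37 bases before another start of SLC3A2 and 57 bases before another start of SLC38A1. The SLC7A5 and SLC7A1 windows were rich in G and C, at 79.6% and 84.4%, against a median of 58.0% over all windows. Such matches are shared letters and no evidence of binding.

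In the comparison of GNE-987 with control, 1 of the 10 genes rose, 6 fell and 3 did not pass both thresholds. A call needed a change of more than 2-fold in either direction together with a P value under 0.05 before adjustment, in a limma fit on log2(FPKM + 0.1) over all 16668 tested genes. By the same rule 33.6% of all tested genes rose and 24.9% fell, and of the protein-coding genes 24% rose and 31.7% fell. The median log2 fold change of the 10 members was -1.42, beside 0.17 over all tested genes and -0.29 over protein-coding genes. The gene that rose was SLC3A2, and those that fell were SLC7A5, SLC7A11, SLC7A1, SLC1A5, SLC38A1 and SLC6A9. The rise of SLC3A2 depended on the scaling, and the sign turned where libraries were scaled to GAPDH.

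**Figure D1:**
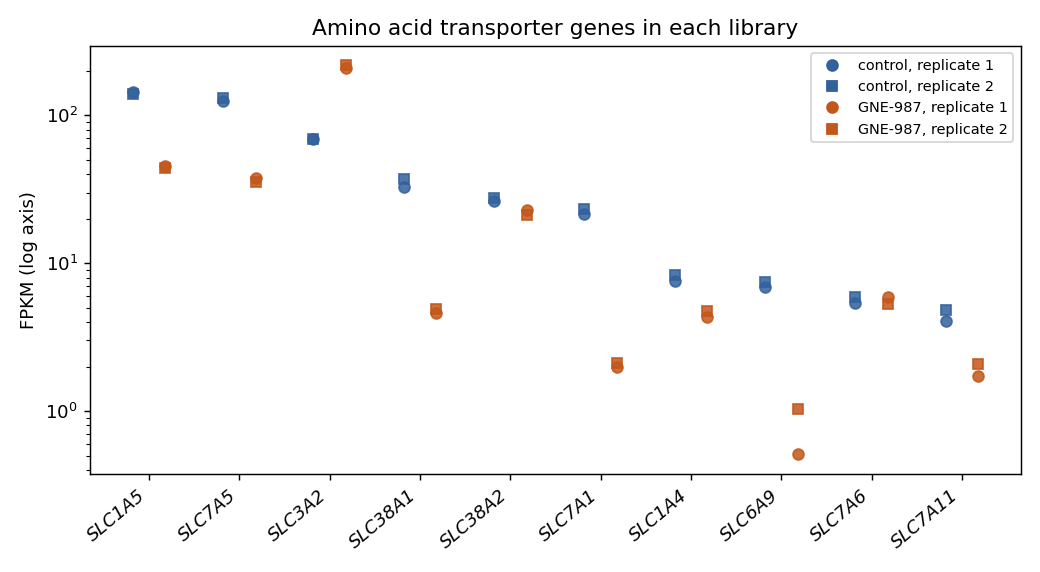
FPKM (log axis) of the 10 transporter genes in each of the 4 libraries, ordered by their control mean, with control in blue, GNE-987 in orange, circles for replicate 1 and squares for replicate 2. SLC3A2 is the gene whose GNE-987 points lie far above its control points, at 210.7 and 217.8 against 69.55 and 69.01 FPKM in the deposited scaling (the sign turns after scaling to GAPDH), while the points of SLC7A6 overlap between the groups.

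The heavy chain gene SLC3A2 (ENSG00000168003, chromosome 11 of GRCh38, 62856004 to 62888880, plus strand) had 69.55 and 69.01 FPKM in control and 210.7 and 217.8 FPKM with GNE-987. The groups did not overlap, and replicates lay close together in both. The means of 69.3 ± 0.381 and 214.2 ± 4.998 FPKM (SD, n = 2) differed 3.09-fold, with a log2 fold change of 1.63 (SE 0.04, adjusted P value of 0.000133 by limma with Benjamini-Hochberg adjustment). In recovered reads the levels were 8292 and 7905 in control and 9122 and 9953 with GNE-987. In RPM, which scales the recovered reads to all reads on genes of the library, this came to 429.6 and 414.4 against 746.5 and 782.4, with a log2 fold change of 0.86 that did not reach the fold threshold. The log2 fold change was 0.65 after quantile normalization and -0.23 after scaling to GAPDH, so the sign of the change of SLC3A2 was not the same under every scaling. GAPDH itself had 398.1 and 432.2 FPKM in control and 1501 and 1499 FPKM with GNE-987. Set against the median of all tested genes, SLC3A2 stood 1.45 higher on the log2 scale in the deposited values, 1.42 higher after scaling to reads on genes, 0.90 after quantile normalization and 1.37 after scaling to GAPDH.

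SNHG1 begins 51 bases from SLC3A2 and runs the other way, across the left part of the SLC3A2 window printed above. It was picked for its position beside SLC3A2, with its values already seen. Its levels were 49.86 and 48.13 FPKM in control and 168.7 and 166.2 FPKM with GNE-987, so that its groups did not overlap either. The log2 fold change of SNHG1 was 1.77 (SE 0.04, limma adjusted P value 0.00013), and -0.08 after scaling to GAPDH. The genes do not overlap in GENCODE.

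SLC7A5 (ENSG00000103257, chromosome 16, 87830023 to 87869507, minus strand), the light chain that carries leucine, fell from 124.8 and 131.9 FPKM in control to 37.58 and 35.22 FPKM with GNE-987. Both GNE-987 libraries lay far below both control libraries. The means were 128.4 ± 5.04 and 36.4 ± 1.67 FPKM (SD, n = 2), a level 3.53-fold lower, with a log2 fold change of -1.82 (SE 0.06, limma adjusted P value 0.000183). The recovered reads were 13633 and 13846 in control and 1491 and 1475 with GNE-987. By the distance of centred log2 values over the 4 libraries, the protein-coding genes with a pattern most like that of SLC7A5, among the 3403 that averaged 10 FPKM or more, were U2SURP (distance 0.0342), TRIB2 (0.0454) and FUBP1 (0.0486). With only 4 libraries in 2 groups, this distance mostly reflects the size of the change. Their log2 fold changes were -1.84, -1.83 and -1.77, and shared control was not tested.

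SLC7A11 (ENSG00000151012, chromosome 4, 138164097 to 138242349, minus strand), the light chain that exchanges cystine for glutamate, was among the lowest of the members. It had 4.039 and 4.804 FPKM in control and 1.736 and 2.091 FPKM with GNE-987, with no overlap of the groups. Its log2 fold change was -1.17 (SE 0.16, limma adjusted P value 0.00384). The call was near the threshold, since a pseudocount of 1 gave -0.90 and a test against a fold change of 2 gave a limma adjusted P value of 0.317. SLC7A11 shares 14081 bases with SLC7A11-AS1 on the opposite strand, which was at most 0.3494 FPKM in any library, and the counting is not stated to use strand.

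SLC7A6 (ENSG00000103064, chromosome 16, 68264516 to 68301823, plus strand), the light chain that exchanges arginine for glutamine, had 5.358 and 5.934 FPKM in control and 5.911 and 5.271 FPKM with GNE-987. The groups overlapped. The log2 fold change was -0.01 with a 95% interval from -0.31 to 0.28 (limma adjusted P value 0.905). In RPM the groups did not overlap, at 48.49 and 52.21 in control and 30.69 and 27.75 with GNE-987. The log2 fold change in RPM was -0.77, short of the fold threshold. It was -1.83 after scaling to GAPDH, where SLC7A6 counted as fallen. SLC7A6 overlaps SLC7A6OS on the opposite strand over 17321 bases, so that its reads could include some of that gene, which had 2.301 and 2.481 FPKM in control and 4.278 and 3.944 FPKM with GNE-987.

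The ratio of light to heavy chain transcripts within a library does not depend on any factor applied to the whole library, though quantile normalization, which moves genes by rank, changes it. For every FPKM of SLC3A2 there were 1.79 and 1.91 FPKM of SLC7A5 in control and 0.178 and 0.162 with GNE-987, a ratio 10.9-fold lower. In FPKM, SLC7A5 thus exceeded its heavy chain gene in both control libraries and was well under it in both GNE-987 libraries. Which of the genes is higher depends on the length used for each, while the fold difference between the groups does not. The ratio of SLC7A11 to SLC3A2 was 0.0581 and 0.0696 in control and 0.00824 and 0.0096 with GNE-987, and that of SLC7A6 to SLC3A2 was 0.077 and 0.086 against 0.0281 and 0.0242. The groups did not overlap in any of the ratios. With 2 libraries against 2, a two-sided exact permutation test cannot give a P value under 0.333, and 0.333 was the value of each ratio.

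Counting all 6 light chain genes measured (SLC7A5, SLC7A6, SLC7A7, SLC7A8, SLC7A10 and SLC7A11, a sum chosen after the values were seen), the light chains added to 138 and 146 FPKM in control and 53.7 and 51.3 FPKM with GNE-987. Their sum per FPKM of SLC3A2 was 1.99 and 2.11 in control and 0.255 and 0.235 with GNE-987. In FPKM, control libraries therefore held more light chain than heavy chain transcript, and GNE-987 libraries held less. Which was higher depends on the gene lengths used for FPKM, and other lengths were not tested. SLC3A2 made up 15.7% and 15.1% of the summed FPKM of the 10 members in control and 62.8% and 64.4% with GNE-987, and the summed FPKM itself was 444 and 456 against 336 and 338.

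**Figure D2:**
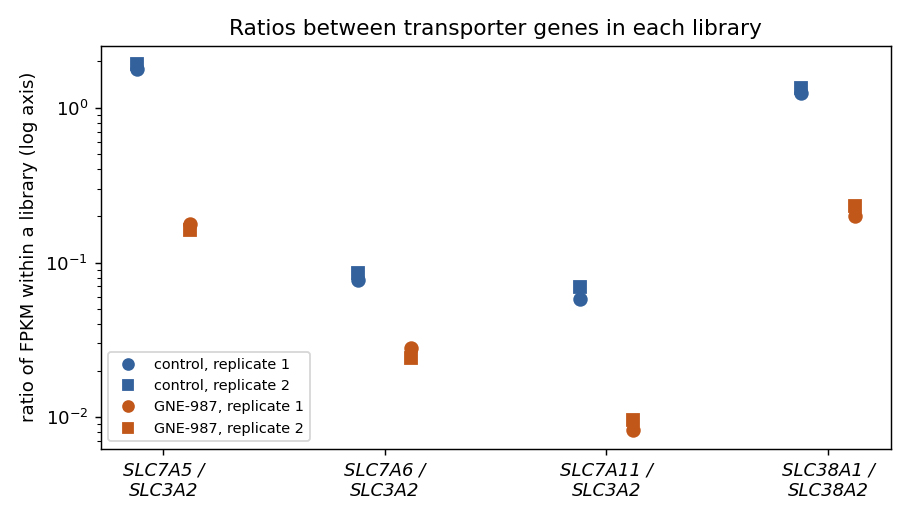
Ratio of the FPKM of each named gene to that of its partner within each library (log axis), with control in blue, GNE-987 in orange, circles for replicate 1 and squares for replicate 2. The ratio of SLC7A5 to SLC3A2 is at 1.79 and 1.91 in control and at 0.178 and 0.162 with GNE-987, and that of SLC38A1 to SLC38A2 lies at 1.25 and 1.34 against 0.201 and 0.232.

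The carriers of glutamine and small neutral amino acids did not move alike. SLC1A5 (ENSG00000105281, chromosome 19, 46774883 to 46788594, minus strand), an exchanger for which glutamine is a main substrate, was the highest of the members in control, at 144.5 and 140.4 FPKM, and fell to 45.48 and 43.87 FPKM with GNE-987. The means of 142.5 ± 2.85 and 44.7 ± 1.14 FPKM (SD, n = 2) differed 3.19-fold, with a log2 fold change of -1.67 (SE 0.04, limma adjusted P value 0.000144). Its groups were far apart against the spread within them. SLC1A5 and SLC7A5, whose proteins exchange glutamine in opposite directions, had close log2 fold changes of -1.67 and -1.82, with 95% intervals of -1.79 to -1.55 and -1.98 to -1.65 that overlap.

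SLC1A4 (ENSG00000115902, chromosome 2, 64988477 to 65023865, plus strand), the related exchanger of alanine, serine and cysteine, had 7.605 and 8.267 FPKM in control and 4.327 and 4.719 FPKM with GNE-987. The groups did not overlap. The log2 fold change was -0.80 (95% interval -1.05 to -0.55, limma adjusted P value 0.00234), which is short of the fold threshold, and -1.56 in RPM, which is past it.

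SLC38A1 and SLC38A2 encode sodium-coupled carriers of glutamine and alanine and lie 88.2 kb apart on the minus strand of chromosome 12. SLC38A1 (ENSG00000111371, 46183063 to 46270017) fell from 32.86 and 37.07 FPKM in control to 4.574 and 4.887 FPKM with GNE-987. This was a level 7.39-fold lower, with a log2 fold change of -2.86 (SE 0.09, limma adjusted P value 0.000178), and the recovered reads were 7577 and 8212 against 383 and 432.

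SLC38A2 (ENSG00000134294, 46358188 to 46372773), whose transcript is known to be induced when amino acids run short, had 26.33 and 27.77 FPKM in control and 22.79 and 21.11 FPKM with GNE-987. Its groups did not overlap but lay close. The log2 fold change was -0.30 (95% interval -0.48 to -0.12, limma adjusted P value 0.0155), short of the fold threshold, and -1.07 in RPM, past it. The ratio of SLC38A1 to SLC38A2 was 1.25 and 1.34 in control and 0.201 and 0.232 with GNE-987. At the gene lengths used for FPKM, SLC38A1 was thus the higher of the pair in control and the lower with GNE-987.

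In the deposited values SLC7A1 and SLC6A9 had the largest falls among the members. SLC7A1 (ENSG00000139514, chromosome 13, 29509414 to 29595688, minus strand), or CAT1, which imports arginine and lysine without a heavy chain, fell from 21.63 and 23.23 FPKM in control to 1.975 and 2.106 FPKM with GNE-987. The means of 22.4 ± 1.13 and 2.04 ± 0.0930 FPKM (SD, n = 2) differed 11.0-fold, with a log2 fold change of -3.40 (SE 0.08, limma adjusted P value 0.00013). The recovered reads were 3831 and 3953 in control and 127 and 143 with GNE-987. No other GENCODE gene overlaps SLC7A1.

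SLC6A9 (ENSG00000196517, chromosome 1, 43991500 to 44031467, minus strand), or GLYT1, which imports glycine and is used by erythroid cells for the synthesis of heme, had 6.903 and 7.492 FPKM in control and 0.5101 and 1.032 FPKM with GNE-987. The groups did not overlap, and few reads were left with GNE-987, 22 and 47 against 820 and 855 in control. The log2 fold change was -3.13 with a 95% interval from -4.10 to -2.17 (SE 0.34, limma adjusted P value 0.00216), the widest interval among the members. SLC6A9 shares 5029 bases with CCDC24 on the opposite strand, which had 0.4766 and 0.3816 FPKM in control and 1.01 and 0.7332 FPKM with GNE-987, so that part of the few reads left could come from that gene. The erythroid genes GATA1 and KLF1 moved the same way, GATA1 from 123.8 and 121.8 to 15.07 and 12.54 FPKM and KLF1 from 85.25 and 85.9 to 27.32 and 24.83 FPKM, while the globin gene HBA2 had 109.8 and 74.89 against 301.4 and 263.3 FPKM. Of the 12 erythroid markers 11 were tested, of which 6 rose and 4 fell, beside 33.6% and 24.9% of all tested genes. The median log2 fold change of the 11 markers was 1.24. These counts and this median are of the deposited scaling, and those under other scalings are not given here. In RPM the rise of HBA2 was smaller, from 108.3 and 71.81 in control to 170.6 and 151.1 with GNE-987. HBG2 still rose strongly in RPM, from 6.528 and 15.88 to 52.46 and 46.85. The part of these genes in the fall of SLC6A9 was not tested.

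**Figure D3:**
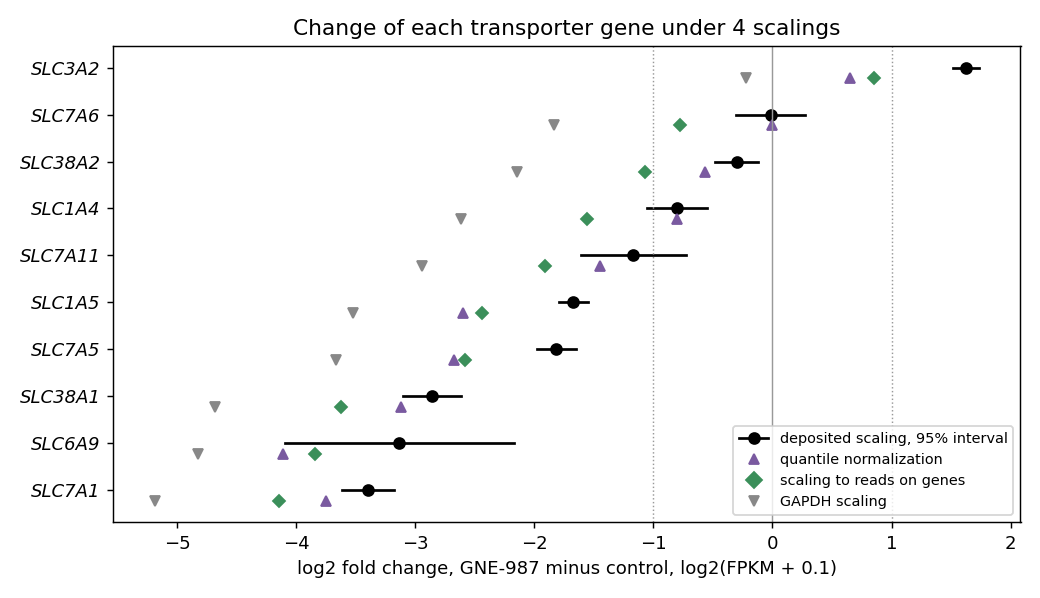
Log2 fold change of each transporter gene, GNE-987 minus control, in the deposited scaling with its 95% interval (black) and after quantile normalization (triangles), scaling to reads on genes (diamonds) and scaling to GAPDH (grey). SLC3A2 runs from 1.63 in the deposited values to -0.23 with GAPDH, while SLC7A1, SLC6A9, SLC38A1, SLC7A5, SLC1A5 and SLC7A11 lie under -1 with all 4.

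The order of the levels in FPKM, which depends on the length used for each gene, changed as well. In control it ran from SLC1A5, SLC7A5 and SLC3A2 through SLC38A1, SLC38A2, SLC7A1, SLC1A4, SLC6A9 and SLC7A6 to SLC7A11, and no neighbours in this order overlapped between replicates. With GNE-987 it ran from SLC3A2, SLC1A5 and SLC7A5 through SLC38A2, SLC7A6, SLC38A1, SLC1A4, SLC7A1 and SLC7A11 to SLC6A9. Here the values of SLC38A1 and SLC1A4 overlapped, as did those of SLC7A1 and SLC7A11, so neither pair could be ordered.

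Of 42 other amino acid transporter genes, 15 passed the filter on low values, and of these 3 rose, 6 fell and 6 did not pass both thresholds, with a median log2 fold change of -0.44. Of all tested genes 33.6% rose and 24.9% fell, and of protein-coding genes 24% rose and 31.7% fell. SLC7A8 (LAT2), the light chain most related to SLC7A5 in its substrates, rose from 3.712 and 2.973 FPKM to 7.946 and 8.094 FPKM, with a log2 fold change of 1.25 (limma adjusted P value 0.00201), but -0.57 after scaling to GAPDH. SLC7A4 and SLC6A20, named after their values were seen, were listed at 0 in both control libraries and had 2.444 and 2.50 FPKM and 1.097 and 1.227 FPKM with GNE-987. SLC6A19, a carrier of neutral amino acids best known from kidney and intestine, fell from 12.25 and 10.58 FPKM to 0.4534 and 0.7516 FPKM, with a log2 fold change of -4.06.

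Among the other falls were those of SLC43A1 (LAT3), which carries leucine without a heavy chain, and of SLC66A1, which exports arginine from the lysosome. SLC43A1 had 14.42 and 12.94 FPKM in control and 5.046 and 5.55 FPKM with GNE-987, a log2 fold change of -1.35. SLC66A1 had 9.314 and 8.415 FPKM against 3.028 and 3.29 FPKM, a log2 fold change of -1.46. The other genes that fell, SLC38A7, SLC38A9 and SLC36A1, were under 4 FPKM in every library and were named after their values were seen, and their log2 fold changes were -1.59, -1.84 and -1.08. That of SLC36A1 was -0.99 without GNE-987 replicate 2, short of the fold threshold. SLC38A5, another glutamine carrier, named after its values were seen, had 40.52 and 40.53 FPKM in control and 57.12 and 54.7 FPKM with GNE-987, a log2 fold change of 0.46 that was short of the fold threshold and -0.31 in RPM.

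**Figure D4:**
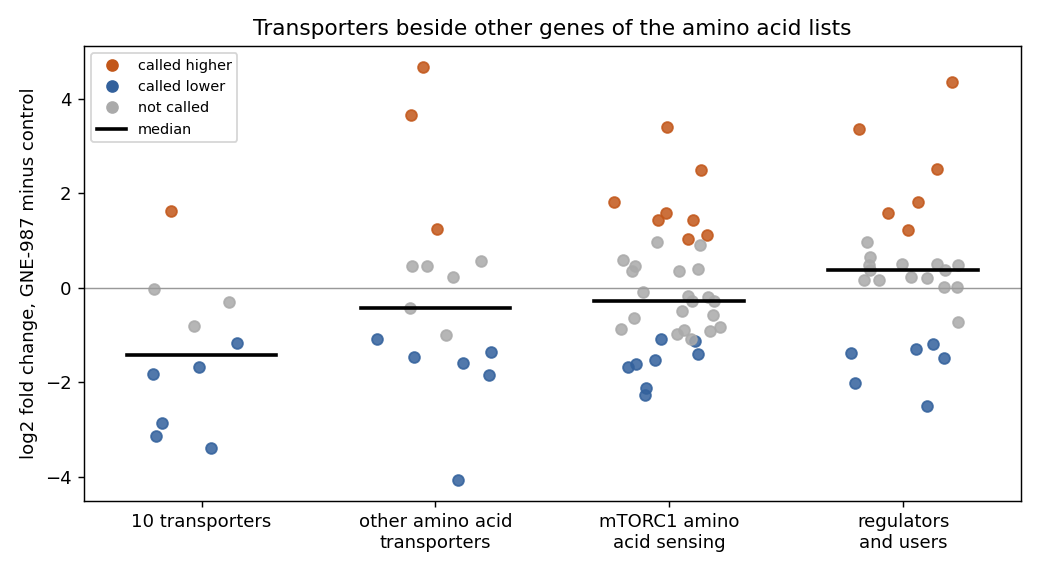
Log2 fold change in the deposited scaling, GNE-987 minus control, of the tested genes of 4 lists, with genes called higher in orange, called lower in blue, others in grey and the list's median as a black bar. The medians are -1.42 for the 10 transporters, -0.44 for the other amino acid transporters, -0.27 for mTORC1 amino acid sensing and 0.37 for regulators and users. Scaling to reads on genes or to GAPDH shifts all points down. With limma-voom on recovered reads SLC7A4 and SLC6A20 move up instead, to 7.34 and 7.92.

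Genes of the mTORC1 amino acid sensing list moved both ways. Besides sensing genes, the list holds mTORC1 subunits, genes of the TSC complex, RHEB, and the substrates RPS6KB1 and EIF4EBP1. Of its 40 genes 37 were tested, of which 8 rose, 8 fell and 21 did not pass both thresholds, with a median log2 fold change of -0.27. By the same rule 33.6% of all tested genes rose and 24.9% fell, and neither share was exceeded in this list. The shares of protein-coding genes, 24% and 31.7%, were not exceeded either. After scaling to reads on genes the same list had 2 genes that rose and 19 that fell, so its balance depended on the scaling. Of all 16668 tested genes, 4188 rose and 6629 fell with that scaling. FNIP1, a partner of folliculin in the signal to the Rag GTPases, rose from 3.577 and 4.087 FPKM to 43.0 and 39.79 FPKM, with a log2 fold change of 3.40 (SE 0.09, limma adjusted P value 0.000157), and SESN2, the leucine sensor Sestrin2, rose from 17.53 and 17.52 FPKM to 51.51 and 53.55 FPKM. The log2 fold changes of SESN2, TSC2 and KPTN were 1.58, 1.45 and 1.04 in the deposited values, 0.81, 0.68 and 0.28 in RPM, where none reached the fold threshold, and -0.27, -0.39 and -0.78 after scaling to GAPDH. Without GNE-987 replicate 1 the log2 fold change of KPTN was 0.99, just short of the fold threshold.

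SEH1L and WDR24, subunits of the GATOR2 complex, and LAMTOR1, which anchors Ragulator to the lysosome, fell with log2 fold changes of -1.40, -1.12 and -1.08. WDR24 had 4.554 and 2.731 FPKM with GNE-987 and lost its call in 3 of the 4 fits that left out a library. These were the fits without GNE-987 replicate 2, where its log2 fold change was -0.76, without control replicate 1 and without control replicate 2. The other 4 genes that rose, SESN3, CASTOR2, BMT2 and RRAGC, and the other 5 that fell, RPTOR, MIOS, WDR59, NPRL2 and FNIP2, were picked with their values in view. SESN3, CASTOR2, BMT2 and RRAGC had log2 fold changes of 2.50, 1.82, 1.44 and 1.12 in the deposited values, and BMT2 and RRAGC turned to -0.32 and -0.66 after scaling to GAPDH. The call of CASTOR2 was lost without either GNE-987 library. That of RRAGC was lost without control replicate 2, at a log2 fold change of 0.96, and without GNE-987 replicate 2. RPTOR, which encodes the substrate-binding subunit of mTORC1, had 7.905 and 8.649 FPKM in control and 1.602 and 1.683 FPKM with GNE-987, a log2 fold change of -2.26. Of the GATOR complexes, MIOS, WDR59 and NPRL2 had log2 fold changes of -2.12, -1.61 and -1.53, and FNIP2, a relative of FNIP1, had one of -1.67.

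The regulators and users of the imported amino acids were 29 genes, of which 27 were tested, 6 rose, 6 fell and 15 did not pass both thresholds, with a median log2 fold change of 0.37. The shares over all tested genes were 33.6% that rose and 24.9% that fell, and neither was exceeded in this list. MYC, a factor known to drive transcription of SLC7A5 and SLC1A5, fell from 91.54 and 90.35 FPKM to 40.3 and 39.49 FPKM, with a log2 fold change of -1.19 (SE 0.04, limma adjusted P value 0.000188). ATF4, the factor of the amino acid response, had 116.4 and 117.7 FPKM in control and 141.6 and 133.8 FPKM with GNE-987, a log2 fold change of 0.23 that was short of the fold threshold and -0.54 in RPM. DDIT3 and NFE2L2 had log2 fold changes of 0.49 and 0.16, neither of which passed, and both turned negative in RPM.

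ASNS, asparagine synthetase, rose from 0.8872 and 1.106 FPKM to 11.14 and 11.22 FPKM, a log2 fold change of 3.37 (SE 0.13, limma adjusted P value 0.000241). CHAC1, which degrades glutathione and is also induced by ATF4, fell from 8.336 and 8.303 FPKM to 2.092 and 1.872 FPKM, a log2 fold change of -2.02. GCLM, the modifier subunit of the enzyme that joins cysteine to glutamate, rose from 6.667 and 6.923 FPKM to 39.61 and 38.57 FPKM, a log2 fold change of 2.51, while its catalytic subunit GCLC had 1.914 and 1.971 against 2.767 and 2.765 FPKM, a log2 fold change of 0.49 that was -0.25 in RPM.

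GLUL, glutamine synthetase, had a log2 fold change of 0.37, which was short of the fold threshold and negative after scaling to GAPDH. PHGDH, which opens the synthesis of serine, had 270.5 and 283.7 FPKM in control and 279.4 and 279.1 FPKM with GNE-987, a log2 fold change of 0.01 (95% interval -0.11 to 0.13), and SHMT2, which turns serine into glycine, had one of 0.21. Both turned negative under other scalings, PHGDH to -1.58 and SHMT2 to -0.51 after quantile normalization, and to -0.76 and -0.56 in RPM. Of the enzymes on the path from arginine, ARG2 and ODC1 had log2 fold changes of 0.17 and 0.51, neither called and both negative in RPM. In heme synthesis, which uses glycine, SLC25A38, the mitochondrial glycine carrier, fell from 15.06 and 14.24 FPKM to 2.429 and 2.594 FPKM, a log2 fold change of -2.50, and so moved in the direction of SLC6A9. ALAS2, the erythroid enzyme that joins glycine to succinyl-CoA, rose from 5.475 and 5.317 FPKM to 13.17 and 12.53 FPKM, a log2 fold change of 1.24 that was -0.60 after scaling to GAPDH. Other genes of this list that rose included ATF3 and GPX4, and the others that fell were CEBPB, EIF2AK4 and GSR, all named after their values were seen, and GPX4 turned to -0.28 after scaling to GAPDH.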

How the data were processed

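RNA-seq was performed on 4 libraries of cells labelled NB4, 2 per group. The authors filtered reads, mapped them with HISAT (HISAT2 2.0.5 and hg38 by the submitters' processing notes) and deposited FPKM per gene and library; the counter and annotation are not given in the sources used here. Median-ratio size factors of the deposited FPKM were 1.01 in each library, so median-ratio scaling is already in them.

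Of 58735 identifiers, 58207 were in GENCODE release 44, which gave symbols and positions. Genes that averaged 0.5 FPKM or more were tested with limma 3.58.1 (R 4.3.3) on log2(FPKM + 0.1), with empirical Bayes moderation and an intensity trend, and P values were adjusted by Benjamini-Hochberg over 16668 genes. The fold change on this scale understates the change of low genes. Reads were recovered from FPKM steps with a tolerance of 0.01. At GENCODE lengths 17421 of 32895 genes (53.0%) gave whole reads, and 15436 at another length, which is a weak check of the reads of those genes. The fits and the recovery were tested on simulated data.

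Groups and replicate numbers came from sample labels. Members and lists were chosen with earlier results of these data known. All 10 members were named. From other transporters and sensing genes, those called with a mean of at least 5 FPKM were named, up to 6 per direction, and 15 regulators and users were named by symbol, while 1 more that the rule names is not reported here. Alternatives were GAPDH, median-ratio, quantile and read-based scaling, limma-voom on recovered reads, pseudocounts of 1 and 0.01, other filters and thresholds, a replicate block and leaving out each library.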

Additional observations from a re-analysis of the deposited data

How the results depend on the processing

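The median of all tested genes shifted by -1.77 with GAPDH, -0.42 with quantile normalization, -0.73 with reads on genes, -0.74 with limma-voom and -0.56 with reads on genes outside the mitochondrial genome, an alternative chosen after seeing the data. Genes higher and lower numbered 5602 and 4148 in the deposited scaling, 3031 and 9738 with GAPDH, 4235 and 5464 with quantile normalization, 4188 and 6629 with reads on genes, 4327 and 6742 with limma-voom and 4487 and 6067 outside the mitochondrial genome. The count of members higher was 0 with GAPDH, quantile normalization, reads on genes and limma-voom, and 1 in every other setting. The count of members lower was 5 to 9. The members median log2 fold change was -3.23 with GAPDH, -2.03 with quantile normalization, -2.18 with reads on genes, -2.21 with limma-voom, -1.995 outside the mitochondrial genome and -1.27 with a pseudocount of 1. Less the median of all tested genes it was -1.59 in the deposited scaling, -1.64 with GAPDH, -1.78 with quantile normalization and -1.62 with reads on genes. Median-ratio scaling changed nothing, by construction.

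With GAPDH 12 other transporters were lower. Without a filter 9 were higher. With limma's treat at a fold change of 2, 4 sensing genes were higher, and other counts of sensing genes higher and lower were 1 and 27 with GAPDH, 2 and 19 with reads on genes, 3 and 19 with limma-voom and 3 and 17 outside the mitochondrial genome.

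Reversed log2 fold changes with GAPDH were -0.60 for ALAS2, -1.60 for ARG2, -1.62 for ATF4, -0.32 for BMT2, -1.35 for DDIT3, -1.29 for GCLC, -1.48 for GLUL, -0.28 for GPX4, -0.78 for KPTN, -1.69 for NFE2L2, -1.34 for ODC1, -1.84 for PHGDH, -0.66 for RRAGC, -0.27 for SESN2, -1.64 for SHMT2, -0.23 for SLC3A2, -1.39 for SLC38A5, -0.57 for SLC7A8, -0.081 for SNHG1 and -0.39 for TSC2. With limma-voom they were -0.58 for ARG2, -0.54 for ATF4, -0.28 for DDIT3, -0.26 for GCLC, -0.40 for GLUL, -0.61 for NFE2L2, -0.26 for ODC1, -0.76 for PHGDH, -0.56 for SHMT2 and -0.31 for SLC38A5. With reads on genes they were -0.57 for ARG2, -0.54 for ATF4, -0.28 for DDIT3, -0.25 for GCLC, -0.40 for GLUL, -0.61 for NFE2L2, -0.26 for ODC1, -0.76 for PHGDH, -0.56 for SHMT2 and -0.31 for SLC38A5. Outside the mitochondrial genome they were -0.40 for ARG2, -0.35 for ATF4, -0.10 for DDIT3, -0.074 for GCLC, -0.21 for GLUL, -0.43 for NFE2L2, -0.076 for ODC1, -0.58 for PHGDH, -0.37 for SHMT2 and -0.12 for SLC38A5. With quantile normalization they were -0.19 for ARG2, -0.85 for ATF4, -0.11 for GAPDH, -0.27 for GLUL, -1.05 for ODC1, -1.58 for PHGDH, -0.51 for SHMT2 and -0.12 for SLC38A5. Without GNE-987 replicate 2 ARG2 was at -0.28 and SLC7A6 at 0.067, without control replicate 1 PHGDH was at -0.023, and without control replicate 2 SLC7A6 was at 0.058. The other end of the range over the 4 fits that left out a library was 0.606 for ARG2 and 0.046 for PHGDH.

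Leaving out each library in turn, with the lone library assumed to vary like the other group, gave a members median log2 fold change of -1.47 to -1.37, 1 member higher and 6 lower each time, 6 to 8 sensing genes higher and 8 to 9 lower, 9006 to 9172 genes called in all, and a ratio of SLC7A5 to SLC3A2 that was 10.4-fold to 11.5-fold lower. With the replicate number as a block, 1 member was higher and 6 lower, 8 sensing genes were higher and 9 lower, and 9853 genes were called. Whether libraries of the same number share more than that number is not given in the labels. Their deviations from the group means had a correlation of 0.00537. With 2 libraries per group, the deviations within a group mirror each other, so this value cannot settle it. Among the 10 members SLC6A9 had the fewest reads with GNE-987, 22 and 47. The cause of each change was not tested.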
